A study of Caenorhabditis elegans with 4 samples.

Results

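The genes described here make, receive or regulate yolk in Caenorhabditis elegans. There are 10 of them among the 13758 rows of the table of normalized signal per gene. They were picked by gene name and sequence name: the vitellogenin genes vit-1 to vit-6, the yolk receptor gene rme-2, and 3 genes listed as regulators, unc-62, lrp-2 and pqm-1. All 10 passed the filter on low values, which asked for at least 1 CPM (reads scaled to a library total) in at least 2 libraries.

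Vitellogenins are large lipid-carrying proteins that the intestine of the adult hermaphrodite secretes into the body cavity. Oocytes take them up through RME-2, a receptor of the low-density lipoprotein receptor family, and embryos use the lipid and amino acids as food. Transcription of the vit genes starts at the change from larva to adult and depends on intestinal and developmental regulators, and on insulin and TGF-beta signalling.

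Whole early adults were sequenced as mRNA in 4 libraries. Of these, 2 came from strain GG14, which carries the g14 allele of fasn-1, the fatty acid synthase gene, and 2 from strain N2 (Bristol), the wild type. Both groups had the same early-life starvation: eggs freed by bleaching stayed for 8 days at 20 °C in buffer without food, at 1 egg per µl. Animals still alive, 750 per library, were then fed HT115 bacteria with an empty vector on 25 µg/ml carbenicillin and 1 mM IPTG for about 68 hours, until eggs appeared. Each library is therefore a pool of survivors, and no fed, unstarved group is among the samples analysed here. The replicates, numbered 3 and 4 in each group, are described as biological.

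Depth was 14643426 and 15889424 reads in fasn-1(g14) and 15023519 and 13960509 reads in N2. The mutant replicates differed from each other more than the N2 replicates did, with a median absolute log2 difference per gene of 0.19 in fasn-1(g14) and 0.12 in N2. The fasn-1 transcript stood at 353 and 285 CPM in the mutant and at 369 and 410 CPM in N2, a log2 change of -0.29 (SE 0.11) that did not pass (limma, adjusted p = 0.120), so it gave no check of the genotype labels.

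All 6 vitellogenin genes had more signal in both fasn-1(g14) libraries than in either N2 library, as did 31.2% of all genes tested, and all but vit-2 rose past the test. Their ratios of mean signal, mutant over N2, lay between 1.55 for vit-3 and 1.74 for vit-6. Of the 10 genes, 5 rose and 0 fell (limma on log2(CPM + 1), Benjamini-Hochberg adjusted p below 0.05 over 12977 genes). By the same rule 4.41% of all genes tested rose and 10.7% fell, together 15.1%. At an unadjusted p below 0.05, 8 of the 10 were higher and 0 lower, against 12.3% and 20.6% of all genes. By edgeR, and also by DESeq2, on recovered reads 6 rose, the 6 vitellogenins, and 0 fell. The shares over all genes were 3.38% higher and 7.04% lower by edgeR, together 10.4%, and 3.91% higher and 8.15% lower by DESeq2. The vitellogenins on chromosome X are close copies of one another, so these counts are not counts of independent genes. With 2 libraries against 2, an exact two-sided permutation test of a single gene cannot go below p = 0.333, so the calls rest on the fit across all genes.

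**Figure D1:**
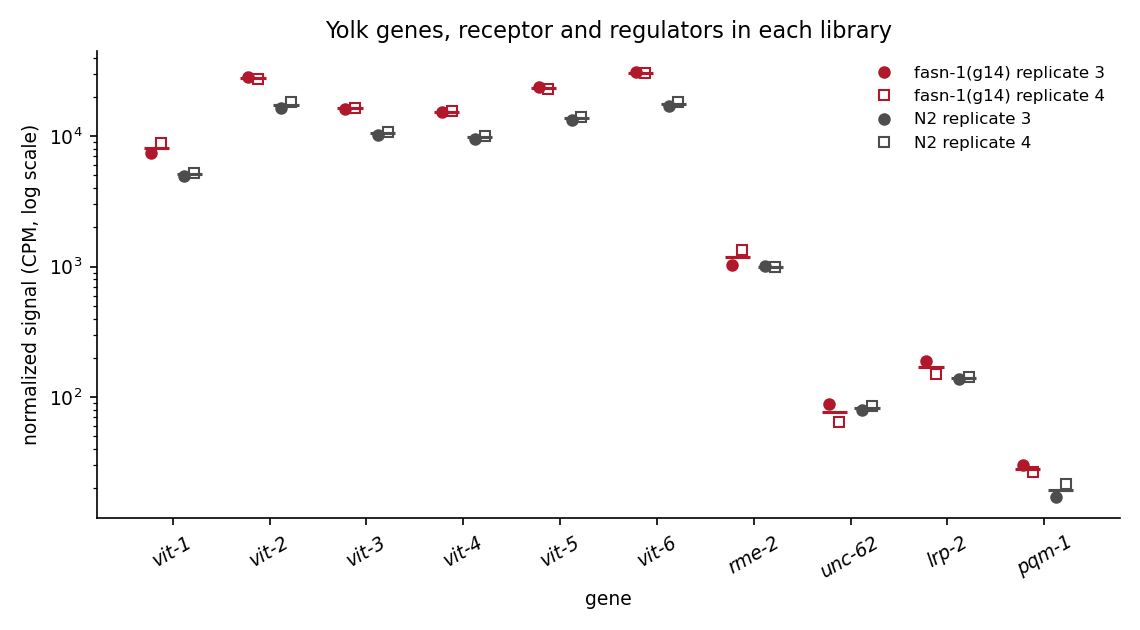
Normalized signal in CPM (log axis) of the 10 genes in each library, fasn-1(g14) in red and N2 in grey, with replicate 3 as filled circles, replicate 4 as open squares and group means as bars. The 6 vitellogenins form the top tier with the mutant libraries above the N2 libraries, whereas unc-62 has its mutant libraries on both sides of N2.

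The vitellogenin with the highest signal was vit-6 (K07H8.6, WBGene00006930; chromosome IV, 8261157 to 8266459, plus strand, WBcel235), whose product is cut into a pair of yolk polypeptides. It was the most abundant row of the table in each of the 4 libraries, at 31012 and 30431 CPM in fasn-1(g14) and at 16955 and 18388 CPM in N2. The lower mutant library was thus well above the higher N2 library. The means were 30722 ± 411 CPM in fasn-1(g14) and 17671 ± 1013 CPM in N2 (SD, n = 2 each), a log2 change of 0.80 (SE 0.19; limma, adjusted p = 0.0351).

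The genes vit-3, vit-4 and vit-5 encode one class of large yolk polypeptide and have the same coding length of 4809 bases. Signal of vit-5 (C04F6.1, WBGene00006929; chromosome X, 3403471 to 3408603, plus strand) was 23792 and 22996 CPM in fasn-1(g14), against 13199.9 and 14117 CPM in N2. It rose by 0.78 on the log2 scale (SE 0.17; limma, adjusted p = 0.0299), close to the change of vit-6. The other pair sits side by side on the minus strand of chromosome X, vit-4 (F59D8.2, WBGene00006928) at 3558769 to 3563965 and vit-3 (F59D8.1, WBGene00006927) at 3567355 to 3572549. The 3389 bases between them hold 0 annotated protein-coding genes. Signal of vit-3 was 16134 and 16524 CPM in fasn-1(g14), against 10213 and 10809 CPM in N2. That of vit-4 was 15278 and 15552 CPM in fasn-1(g14), against 9530.0 and 10057 CPM in N2. These neighbours moved almost alike, with log2 changes of 0.64 for vit-3 (SE 0.16) and 0.65 for vit-4 (SE 0.15), both past the test (limma, adjusted p = 0.0373 and 0.0323). The signal of vit-3 was 1.06 times that of vit-4 in each mutant library and 1.07 times in each N2 library.

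The genes vit-1 and vit-2 encode the other class of large yolk polypeptide. For vit-1 (K09F5.2, WBGene00006925; chromosome X, 7727889 to 7733168, plus strand), the least abundant of the 6, the libraries read 7400.1 and 8789 CPM in fasn-1(g14) and 4962 and 5208 CPM in N2. It rose by 0.67 on the log2 scale (SE 0.14; limma, adjusted p = 0.0249), and it was the vitellogenin whose mutant libraries lay farthest apart, by 0.25 on that scale. For vit-2 (C42D8.2, WBGene00006926; chromosome X, 5101042 to 5106169, plus strand) they read 28618 and 27182 CPM in fasn-1(g14) and 16492 and 18352 CPM in N2. Its groups did not overlap, but the log2 change of 0.68 (SE 0.19, 95% interval 0.24 to 1.13) missed the threshold by limma (adjusted p = 0.0525) and passed by edgeR's quasi-likelihood test on recovered reads (adjusted p = 0.0238). The size of its change therefore lay within the range of the other 5, and only its call differed.

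The vitellogenin calls depended on having both N2 libraries in the fit. Without N2 replicate 3, and again without N2 replicate 4, 0 of the 6 passed although their log2 changes stayed between 0.60 and 0.86, and without either mutant library all 6 passed. In such fits the group left with 1 library was taken to vary as the other group did. A pseudocount of 5 CPM left 1 call, vit-1, and a fit without the mean-variance trend left 3, which were vit-6, vit-5 and vit-4. The 5 vit genes on chromosome X resemble each other closely in sequence, so the counting may have split or dropped reads that match several of them. Their sum avoids the effect of a split, but not that of dropped reads.

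**Figure D2:**
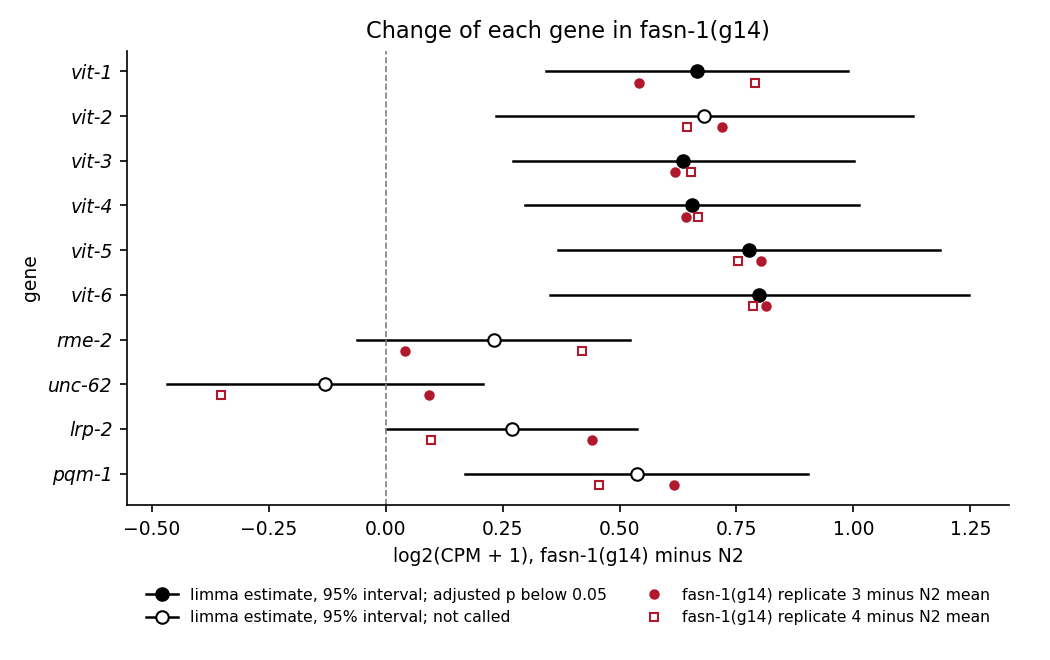
Log2(CPM + 1) in fasn-1(g14) minus N2 for each gene (horizontal axis), with limma's estimate and 95% interval in black, filled where the adjusted p is below 0.05, and each mutant library against the N2 mean in red. The 6 vitellogenins lie between 0.64 and 0.80 with both mutant libraries on the same side, whereas the mutant libraries of unc-62 lie on both sides of 0.

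Summed over vit-1 to vit-6, the signal was 122235 and 121474 CPM in fasn-1(g14) and 71351 and 76930.5 CPM in N2. As a share of all signal in a library, this was 12.4% and 11.8% in fasn-1(g14), against 7.56% and 8.17% in N2. The ratio of the mean sums was 1.64, and 1.54 after each library was scaled to its own total. Without 1 library at a time the ratio stayed between 1.58 and 1.71. A sum over chosen genes is given as a description, without a test.

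The make-up of the sum was much the same in both groups, with small shifts. The share of vit-6 was 25.4% and 25.1% in fasn-1(g14), against 23.8% and 23.9% in N2. The share of vit-5 was 19.5% and 18.9% in fasn-1(g14) and 18.5% and 18.4% in N2. These 2 shares were higher in both mutant libraries. Lower in both mutant libraries were vit-3, at 13.2% and 13.6% in fasn-1(g14) and 14.3% and 14.1% in N2, and vit-4, at 12.5% and 12.8% in fasn-1(g14) and 13.4% and 13.1% in N2. For vit-1, at 6.05% and 7.24% in fasn-1(g14) and 6.95% and 6.77% in N2, and for vit-2, at 23.4% and 22.4% in fasn-1(g14) and 23.1% and 23.9% in N2, the groups overlapped. The ratio of vit-6 to the sum of vit-1 to vit-5 does not depend on any split of reads among the copies, though it would on dropped reads. It was 0.340 and 0.334 in fasn-1(g14) and 0.312 and 0.314 in N2.

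**Figure D3:**
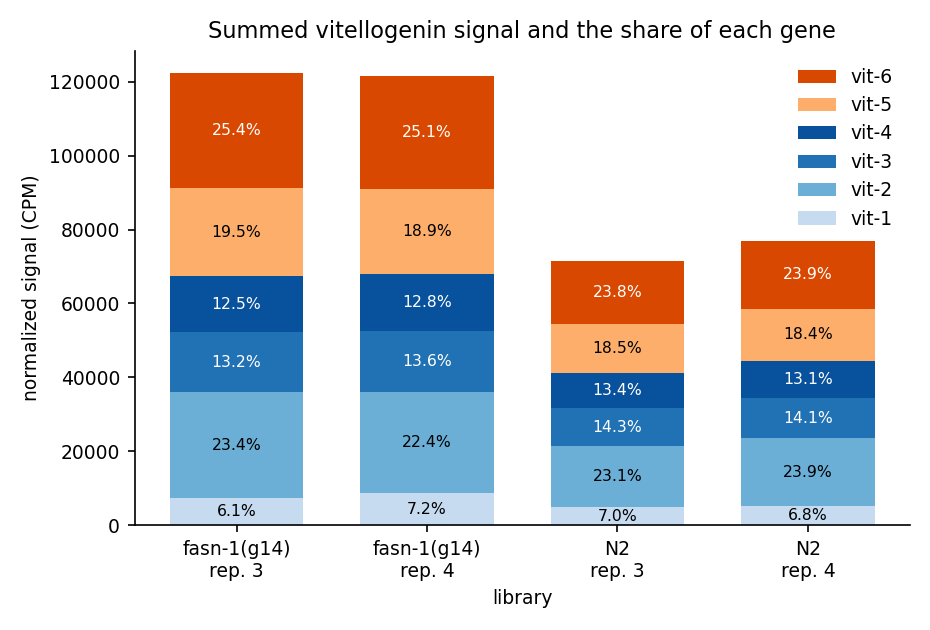
Stacked signal of vit-1 to vit-6 in CPM (vertical axis) for each library (horizontal axis), with each gene's share of the sum printed in its segment. The mutant bars reach about 122235 and 121474 CPM and the N2 bars 71351 and 76930.5 CPM, while the shares differ by at most a few percentage points.

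Levels of different genes were compared per kilobase of coding sequence. Reads dropped for matching several genes, if any were, would lower the levels of close copies. In fasn-1(g14) the order of mean levels was vit-6 at 6203 ± 82.9, vit-2 at 5766 ± 210, vit-5 at 4865 ± 117, vit-3 at 3396 ± 57.2, vit-4 at 3205 ± 40.4 and vit-1 at 1670 ± 203 CPM per kilobase (SD, n = 2). In N2 it was vit-2 at 3600.3 ± 272, vit-6 at 3568 ± 205, vit-5 at 2840.2 ± 135, vit-3 at 2186 ± 87.7, vit-4 at 2037 ± 77.5 and vit-1 at 1049 ± 35.9 CPM per kilobase. In N2 the first 2 of that order could not be told apart, with 3408 and 3792 for vit-2 and 3423 and 3712 for vit-6. In fasn-1(g14) they separated, with 6261 and 6144 for vit-6 above 5914 and 5617 for vit-2. The receptor gene followed at 426 ± 78.7 in fasn-1(g14) and 360.2 ± 6.61 in N2. The regulators were lowest: unc-62 at 45.1 ± 9.90 in fasn-1(g14) and 48.8 ± 2.78 in N2, pqm-1 at 32.1 ± 2.61 in fasn-1(g14) and 21.8 ± 3.38 in N2, and lrp-2 at 11.6 ± 1.96 in fasn-1(g14) and 9.59 ± 0.242 in N2.

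The receptor gene rme-2 (T11F8.3, WBGene00004374; chromosome IV, 5470026 to 5473174, plus strand) did not change past the test. Its signal was 1029 and 1337 CPM in fasn-1(g14) and 1013 and 987 CPM in N2. Mutant replicate 3 sat just above the N2 libraries and mutant replicate 4 well above them. The log2 change was 0.23 (SE 0.12, 95% interval -0.061 to 0.52; limma, adjusted p = 0.241). Without mutant replicate 3 it was 0.42, and without mutant replicate 4 it was 0.041, so the value depended on the mutant library kept. The summed vitellogenin signal was 118.8 and 90.8 times that of rme-2 in fasn-1(g14), against 70.5 and 78.0 times in N2.

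Of the 3 regulators, 0 passed by limma, edgeR or DESeq2, and pqm-1 and lrp-2 did so only at an unadjusted p below 0.05. The gene pqm-1 (F40F8.7, WBGene00004096; chromosome II, 11150391 to 11152595, minus strand) encodes a zinc-finger transcription factor of the intestine that responds to insulin signalling. It had 30.005 and 26.7 CPM in fasn-1(g14), from 444 and 413 reads, against 17.2 and 21.5 CPM in N2, from 274 and 318 reads. Both mutant libraries stood above both N2 libraries. The log2 change was 0.54 (SE 0.16, 95% interval 0.17 to 0.90; limma, adjusted p = 0.0586), and without mutant replicates 3 and 4 in turn it was 0.46 and 0.62. Without N2 replicates 3 and 4 in turn it was 0.39 and 0.69.

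The gene lrp-2 (T21E3.3, WBGene00003072; chromosome I, 3935272 to 3953991, minus strand) encodes a low-density lipoprotein receptor-related protein. Its libraries read 190.0 and 149.5 CPM in fasn-1(g14) and 137.2 and 142.2 CPM in N2, with mutant replicate 3 standing apart from the other 3. With a log2 change of 0.27 (SE 0.11) and a 95% interval of 0.00075 to 0.54, lrp-2 missed the threshold (limma, adjusted p = 0.151). Without mutant replicate 4 the log2 change was 0.44, and without mutant replicate 3 it was 0.097.

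The gene unc-62 (T28F12.2, WBGene00006796; chromosome V, 4497461 to 4511449, plus strand) encodes a homeodomain protein of the Meis type that drives vit transcription in the adult intestine and acts in many other tissues. It has 18 annotated transcripts, which the table does not separate. Its signal was 88.1 and 64.4 CPM in fasn-1(g14) and 79.3 and 85.9 CPM in N2, so both N2 libraries fell between the mutant ones. The log2 change was -0.13 (SE 0.14, 95% interval -0.47 to 0.21; limma, adjusted p = 0.572). Without mutant replicate 3 it was -0.35, and without mutant replicate 4 it turned to 0.093. Without N2 replicates 3 and 4 in turn it was -0.19 and -0.072. Of the 10 genes unc-62 was the only one whose groups overlapped. The other 9 were higher in both mutant libraries, as were 31.2% of all genes tested, while 32.9% were lower in both. For rme-2 the 95% counting intervals of mutant replicate 3 (1012 to 1045 CPM) and N2 replicate 3 (997 to 1028 CPM) overlapped. For lrp-2 those of mutant replicate 4 (143.5 to 155.7 CPM) and N2 replicate 4 (136.2 to 148.4 CPM) overlapped too.

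Of 30 other listed regulators of vit transcription, 29 had a row and were tested. Past the test were 2 that rose, or 6.90%, and 4 that fell, or 13.8%, which leaves 23. These shares were near the 4.41% and 10.7% of all genes tested. The median log2 change was -0.016, against 0.0019 over all genes tested. The 2 that rose were rict-1, the Rictor subunit of TOR complex 2, and daf-2, the insulin receptor gene. Signal of rict-1 was 150.2 and 164 CPM in fasn-1(g14) and 124.6 and 126.9 CPM in N2. That of daf-2 was 185 and 184 CPM in fasn-1(g14) and 152 and 149 CPM in N2. The log2 changes of rict-1 and daf-2 were 0.32 (SE 0.080) and 0.29 (SE 0.072; limma, adjusted p = 0.0394 and 0.0379). Both calls were lost after scaling to the column total, under a filter on mean signal of 5 CPM, and with a replicate block.

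Among the regulators that fell, lin-14, a heterochronic gene that holds early larval fates, had the largest change. It stood at 47.4 and 26.9 CPM in fasn-1(g14), against 87.3 and 95.8 CPM in N2 (log2 change -1.33, SE 0.23; limma, adjusted p = 0.0156). The period-like heterochronic gene lin-42 stood at 17.6 and 13.3 CPM in fasn-1(g14) and 23.4 and 35.6 CPM in N2 (log2 change -0.87, adjusted p = 0.0427 by limma and 0.0545 by edgeR). The TGF-beta ligand gene dbl-1 stood at 5.54 and 4.27 CPM in fasn-1(g14), against 10.7 and 10.2 CPM in N2 (log2 change -0.96; limma, adjusted p = 0.0313). Lower too was daf-12, for a nuclear receptor of stage progression, which stood at 20.6 and 18.3 CPM in fasn-1(g14), against 30.03 and 31.03 CPM in N2 (log2 change -0.63; limma, adjusted p = 0.0271). Without N2 replicates 3 and 4 in turn, 0 regulators rose and 3 and 1 fell.

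Partners of UNC-62 in the TALE homeodomain class had 0 calls among 4 tested by limma, edgeR or DESeq2. Over all genes tested 4.41% rose and 10.7% fell by limma. By limma at an unadjusted p below 0.05, 0 of the 4 were higher and 1 was lower, against 12.3% and 20.6% of all genes. That one was ceh-20, at 34.1 and 18.3 CPM in fasn-1(g14) and 40.3 and 40.2 CPM in N2 (log2 change -0.67, SE 0.25; limma, adjusted p = 0.112). The PBX gene ceh-60, whose product works with UNC-62 on vit genes, had 5.07 and 6.86 CPM in fasn-1(g14) and 4.08 and 4.32 CPM in N2 (log2 change 0.41, SE 0.24; adjusted p = 0.281).

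Of the genes that fold, export and take up yolk, 1 passed the test. In the list of lipoprotein assembly and secretion 0 of 24 tested genes passed by limma, edgeR or DESeq2, with a median log2 change of 0.067. At an unadjusted p below 0.05 by limma, 3 were higher and 0 lower, against 12.3% and 20.6% of all genes. The smallest p-values were those of sft-4, a cargo receptor for yolk export, with 129 and 140.4 CPM in fasn-1(g14) and 109.8 and 113 CPM in N2, and of the disulfide oxidase gene ero-1, with 107 and 102 CPM in fasn-1(g14) and 89.7 and 86.7 CPM in N2. Their log2 changes were 0.27 (SE 0.081) and 0.24 (SE 0.080; limma, adjusted p = 0.0631 and 0.0800).

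In the list of uptake, endocytosis and endosomes 1 of 29 rose, or 3.45%, and 0 fell, with a median log2 change of 0.081. Over all genes tested 4.41% rose and 10.7% fell, so the rise of 1 gene was no more than the share over all genes. The gene that rose was cpl-1, for a cathepsin L-like protease that processes yolk, at 1242 and 1376 CPM in fasn-1(g14), against 926 and 934 CPM in N2 (log2 change 0.49, SE 0.086; limma, adjusted p = 0.0163). Its call was lost without either N2 library.

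**Figure D4:**
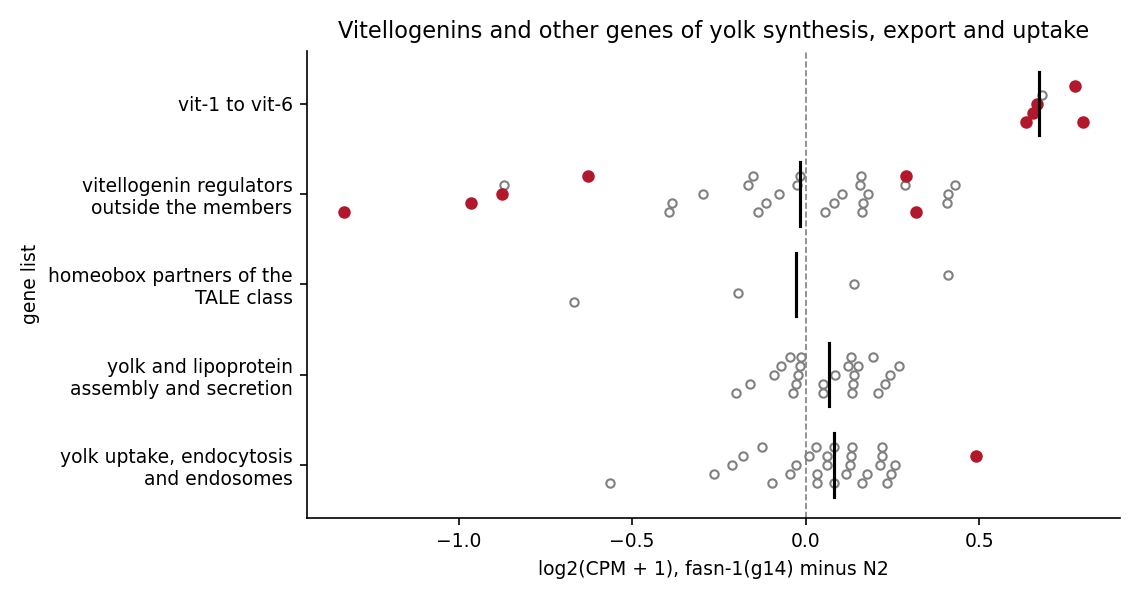
Log2(CPM + 1) in fasn-1(g14) minus N2 (horizontal axis) for each tested gene of vit-1 to vit-6 and of 4 lists (rows), with genes of adjusted p below 0.05 filled in red, others open, list medians as black bars and the median of all genes as a dashed line. The vitellogenins start at 0.64, to the right of the genes of the other lists, of which cpl-1 at 0.49 is the highest. The regulators spread from -1.33 to 0.43.

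Some markers of tissue and stage moved beside the vitellogenins. Over all genes tested 4.41% rose and 10.7% fell. Of 10 tested intestine markers 4 rose and 0 fell (median log2 change 0.31), and their summed signal was 1369 and 1548 CPM in fasn-1(g14) and 1157 and 1171 CPM in N2. The 4, named after their values were seen, were the esterase gene ges-1, the proton pump gene vha-6, the intermediate filament gene ifc-2 and the phosphatase gene pho-1, with log2 changes of 0.59, 0.57, 0.28 and 0.83 (limma); ifc-2 did not pass by edgeR (adjusted p = 0.0544). The intestinal identity gene elt-2, likewise named after its values were seen, had 15.0 and 12.6 CPM in fasn-1(g14) and 11.6 and 10.7 CPM in N2 and did not pass (limma, adjusted p = 0.317). In bulk RNA of whole animals, more or fewer cells of a type and more or less RNA per cell cannot be told apart.

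Larval molt genes went the other way, as 7 of 13 fell, or 53.8%, and 0 rose (median log2 change -0.88). Among all genes tested 10.7% fell. At an unadjusted p below 0.05 by limma, 1 of the 13 was higher and 11 were lower, against 12.3% and 20.6% of all genes. The higher one was nas-37, at 16.2 and 13.1 CPM in fasn-1(g14) and 9.86 and 8.03 CPM in N2 (log2 change 0.66; limma, adjusted p = 0.0682). Summed signal of the molt genes was 553 and 311 CPM in fasn-1(g14) and 688 and 857 CPM in N2. Of 8 adult cuticle genes, 1 rose, the adult collagen gene col-19, named after its values were seen. With so few genes, that share of 12.5% cannot be told apart from the 4.41% of all genes. At an unadjusted p below 0.05 by limma, 3 of the 8 were higher and 1 lower, against 12.3% and 20.6% of all genes. The lower one was rol-6, at 1.69 and 3.30 CPM in fasn-1(g14) and 4.21 and 7.76 CPM in N2 (log2 change -0.99; limma, adjusted p = 0.0939). Among 18 oocyte and eggshell genes 0 passed by limma, edgeR or DESeq2. By limma at an unadjusted p below 0.05, 3 were higher and 0 lower, against 12.3% and 20.6% of all genes. The sum over the 18 was 14150 and 17627 CPM in fasn-1(g14) and 13867 and 13085 CPM in N2. Mutant replicate 4 thus stood highest for oocyte genes as it did for rme-2. Of 10 sperm rows tested, 2 of which carry the symbol ssp-9, 5 rose and 0 fell (3 and 0 by edgeR). The 5 were both ssp-9 rows, msp-142, msp-57 and gsp-3, again named after their values were seen. Counts were low: in N2, msp-142 had 5 and 5 reads, msp-57 had 4 and 13, and gsp-3 had 8 and 12. The list had a sum of 43.9 and 54.7 CPM in fasn-1(g14) and 30.5 and 32.8 CPM in N2. Of that sum, spe-44, which did not pass, held 23.4 and 24.7 CPM in fasn-1(g14) and 21.4 and 20.5 CPM in N2. The part of stage, tissue make-up and library in the vitellogenin values was not tested.

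Chromosome X holds all vit genes but vit-6. Of 1938 X-linked genes tested 105 rose, or 5.42%, and 314 fell, and their median log2 change was -0.13. Over all 12977 genes tested, 572 rose, or 4.41%, and 1386 fell, or 10.7%. Falls thus made up a larger share of the X-linked genes than of all genes. The nearest protein-coding neighbours with a row in the table gave 2 that rose, 1 that fell and 6 that did not pass. Beside vit-1, spp-14, a saposin-like gene 1505 bases away, rose with 275 and 292 CPM in fasn-1(g14) and 208 and 234 CPM in N2 (limma, adjusted p = 0.0327), and set-12, 165 bases away, did not pass. Beside vit-3, ckc-1, a choline kinase gene 4056 bases away, rose with 22.2 and 23.2 CPM in fasn-1(g14) and 13.8 and 15.6 CPM in N2 (limma, adjusted p = 0.0409; 0.0509 by edgeR). Beside vit-2, acn-1, a gene needed for molting, fell to 18.2 and 10.9 CPM in fasn-1(g14), against 39.6 and 45.5 CPM in N2 (limma, adjusted p = 0.0112). The remaining neighbours tested, C42D8.1, rgs-7, cht-1, unc-78 and K07H8.12, did not pass, and K07H8.7 was too low to test.

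The genes closest to the summed vitellogenins across the 4 libraries were sought among 5229 genes with a mean of at least 10 CPM. The search took only genes with a symbol of letters and a number. It left out genes known by a sequence name alone, and the genes this report is about. The measure was the root mean square difference of centred log2(CPM + 1) values. The closest was fat-3, a fatty acid desaturase gene, with a difference of 0.024, followed by gldi-8, ndx-4, cpr-6 and enu-3.1 with differences of 0.036 to 0.046. Levels of fat-3 were 126 and 127 CPM in fasn-1(g14) and 74.6 and 77.4 CPM in N2. The closest to rme-2 were gln-6, egg-1, pie-1, kynu-1 and hprt-1, with differences of 0.0082 to 0.011. Levels of egg-1, an oocyte gene for a sperm-interacting surface protein, were 522 and 674 CPM in fasn-1(g14) and 519 and 499 CPM in N2, high in mutant replicate 4 as rme-2 was. With 4 libraries such likeness describes these values only.

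**Figure D5:**
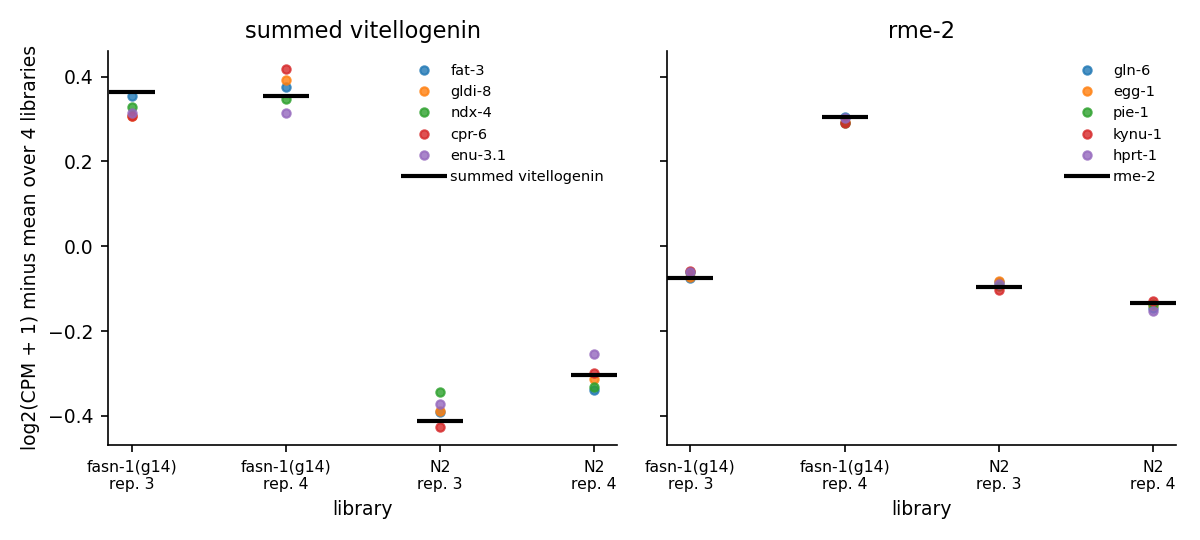
Log2(CPM + 1) minus its mean over the 4 libraries (vertical axis) in each library (horizontal axis) for the summed vitellogenins (left panel, black bars) and rme-2 (right panel, black bars) with the 5 genes closest to each among those searched (coloured points). The vitellogenin profile is high in both mutant libraries, and the rme-2 profile is high in mutant replicate 4 only.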

How the data were processed

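The deposited table holds, for each gene and library, a normalized signal. The tools edgeR 3.28.1, HTSeq 0.12.4 and Bowtie2 2.3.3.1 are listed, with no roles or settings, per the submitters' processing notes. Genome build, annotation and the handling of reads matching several genes were not given in the sources used here. Strand is not marked by the library kit that the labels name. Its columns sum to 941734 to 1028879, near but not at the fixed total of CPM, the unit used as its name here; the test planned for CPM was used on this signal. Dividing by the value of 1 read gave whole reads within 0.001 for 100% of values; 3 reads stand at 0.188 to 0.203 CPM. That floor covers counting error only. The table's 8 further columns, of samples outside this comparison, were left out. Of 13758 rows, 13747 matched 1 gene of Ensembl release 115 (WBcel235), the source of names, positions and coding lengths; whether it is the authors' build is not known.

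The filter asked for 1 CPM or more in 2 or more libraries and left out 781 rows. limma 3.58.1 in R 4.3.3 was fitted to log2(CPM + 1) by group, with a mean-variance trend, two-sided, with Benjamini-Hochberg adjustment over all genes and a threshold of 0.05. Log2 changes understate those of low genes. edgeR 4.0.16 and DESeq2 1.42.0 were run on the recovered reads as alternatives. limma and edgeR were also run on simulated counts with the same relative spread for all genes and both groups. That run gives no error rate for these replicates, whose spread differs between groups. Replicates of a group differed by more than sampling noise (chi-square of 13.3 times its degrees of freedom in fasn-1(g14) and 4.58 in N2). The genes, lists and named-gene rule were chosen with earlier results of these data known. Named are the 10 genes, fasn-1, members of the 4 pathway lists past the threshold or, where none passed, the 2 with the smallest p-values, neighbours of the vit genes, and the 5 genes closest in profile. Symbols mab-3, arf-1.2, sec-13, opt-2, spe-9, spe-38 and spe-42 matched no row. Some genes stand in more than 1 list.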

Additional observations from a re-analysis of the deposited data

How the results depend on the processing

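Under the alternatives run, the 6 vitellogenins kept a positive log2 change and their calls moved. Rises among the 10 genes numbered 5, with 5 among the vitellogenins, in the fit reported above. With a pseudocount of 5 CPM these counts were 1 and 1, without the mean-variance trend 3 and 3, and with the replicate number as a block 1 (pqm-1, adjusted p = 0.0480) and 0. Leaving out 1 library at a time gave 0 to 8 rises among the 10 genes, 0 to 6 among the vitellogenins and 0 to 1 falls; a group's single library was then taken to vary as the other group's do. Genes called across the table were 572 higher and 1386 lower as reported, 439 and 913 by edgeR, 288 and 509 with a mean of at least 5 CPM, 172 and 545 without the trend, 361 higher when columns were scaled to their total, and 151 to 2346 higher and 179 to 3268 lower without 1 library. In the 4 lists together 3 rose and 4 fell; 1 rose with a mean of at least 5 CPM or scaling to the column total, 0 rose and 1 fell without the trend, 1 rose and 7 fell with the replicate block, and 0 to 25 rose and 1 to 16 fell without 1 library. The ratio of summed vitellogenins was 1.54 after scaling to the column total and 1.58 to 1.71 without 1 library. The cause of these moves was not tested. The replicate numbers share only a label, as no source ties them to a batch, and differences between replicates 4 and 3 correlated at -0.21 across genes between the groups. Crossing the numbers, an alternative added after seeing the data, gave 8 rises among the 10 genes, 6 among the vitellogenins, 1197 higher and 2310 lower genes in all, and 8 rises and 8 falls in the lists. Log2 changes that reversed were those of unc-62, C42D8.1 and cht-1, at 0.093, 0.018 and 0.053 without fasn-1(g14) replicate 4 and at -0.35, -0.21 and -0.56 without replicate 3, and of rgs-7 after scaling to the column total, at -0.0025. That scaling moved the median of all genes to -0.089. Depth limited pqm-1 most, with 274 to 444 reads.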
